A study of Homo sapiens with 17 samples.

Results

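The collagen genes were taken as every gene whose symbol is COL, a number, the letter A and a number, which gave 44 genes of the 62754 in the count tables. All 44 are annotated as protein coding. The cells were IMR90 ER:RAS, human lung fibroblasts (IMR90) that carry an oncogenic RAS fused to an estrogen receptor domain by retroviral infection. In them 4-hydroxytamoxifen (4OHT) switches RAS on and induces oncogene-induced senescence. Gene counts from poly(A) RNA sequencing were compared among 3 groups at day 7: DMSO siNT (growing cells given the solvent and a non-targeting siRNA, n = 5 libraries), 4OHT siNT (senescent cells with the non-targeting siRNA, n = 6) and 4OHT siSMARCA4 (senescent cells with an siRNA against SMARCA4, n = 6). The product of SMARCA4, BRG1, is a motor subunit of SWI/SNF chromatin remodelers. All groups carry the ER:RAS construct, and no growing cells with siSMARCA4 were analysed here. Each library carries an siRNA number, 2 or 4, and a tag such as 1V or 2VM, whose V and VM the labels do not explain. All 4OHT siNT libraries are tagged VM, while the other groups hold both V and VM. Comparisons with 4OHT siNT are therefore unbalanced in this tag. Nothing in the labels says that libraries of a group came from separate cultures, so p-values measure the spread between these libraries.

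Collagens are triple helices, and each kind of chain is made from its own gene. Fibrillar collagens form the fibers that give connective tissue its strength, type IV collagen forms the sheet of basement membranes, and type VI collagen forms beaded filaments around cells. Other collagens coat fibrils, anchor epithelium, form hexagonal networks or sit in the cell membrane. Lung fibroblasts are a main source of types I, III, V and VI. Senescent fibroblasts are known for remodeling their matrix, in part through secreted proteases.

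Library totals ran from 39109479 to 68978119 counts. SMARCA4 was at 198 ± 19.3 CPM (counts-per-million, scaled by the trimmed mean of M values; mean ± SD) in DMSO siNT, 268 ± 13.2 in 4OHT siNT and 88.1 ± 22.8 in 4OHT siSMARCA4, with every knockdown library below every other. Of the fibroblast markers, VIM was at 5990, 5970 and 5720 CPM in the same order, and PDGFRA at 137, 134 and 127. The others fell in both steps. THY1 stood at 705, 359 and 161 CPM, PDGFRB at 189, 117 and 48.2, and LUM at 66.3, 20.9 and 12.2. DCN stood at 549, 15.8 and 9.19 CPM and S100A4 at 9.15, 2.97 and 1.81. VIM outweighs the other markers of this list, so their sum mostly shows VIM. The epithelial markers CDH1, KRT5 and KRT14 averaged at or under 0.05 CPM in all groups, as did CDH5 for endothelium. KRT19 made up most of the epithelial level in each group, and VWF most of the endothelial level. In 4OHT siNT against DMSO siNT, KRT19 and EPCAM fell, with log2 fold changes of -4.93 and -1.17. PECAM1, VWF and KDR rose there, with 5.8, 1.76 and 1.49 (each at edgeR adjusted p under 0.05). Under siSMARCA4 KRT19, EPCAM and PECAM1 fell, and VWF and KDR did not pass the test. The 4 smooth muscle or myofibroblast markers summed to 1240 to 2360 CPM per library in DMSO siNT, 200.0 to 334 in 4OHT siNT and 159 to 236 in 4OHT siSMARCA4, and the 7 fibroblast markers to 6860 to 8580, 5860 to 7220 and 5420 to 6730. The 5 epithelial markers summed to 31.0 to 47.3, 1.13 to 2.64 and 0.543 to 1.11 CPM, and the 4 endothelial markers to 0.856 to 1.96, 3.95 to 5.94 and 2.05 to 4.46. The part of these changes in the collagen results was not tested.

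Promoter windows, from 250 bases before to 50 bases after a start site, were at hand for 32 of the 44 genes (44 windows, RefSeq, GRCh38.p14). Those printed belong to genes on which the results turn: the head-to-head pair COL4A1 and COL4A2, whose windows share 226 bases, COL6A2 and COL7A1, which were higher in 4OHT siNT, COL10A1, which had the largest rise, and COL11A1, which fell in both comparisons. Capitals mark any of 4 motifs on either strand, the CCAAT box (CCAAT), the TATA box (TATAAA), the AP-1 site (TGANTCA) and the GC box (GGGCGG), and no 2 different motifs overlap in the windows printed.
COL4A1 (chr13:110307108-110307407, minus strand): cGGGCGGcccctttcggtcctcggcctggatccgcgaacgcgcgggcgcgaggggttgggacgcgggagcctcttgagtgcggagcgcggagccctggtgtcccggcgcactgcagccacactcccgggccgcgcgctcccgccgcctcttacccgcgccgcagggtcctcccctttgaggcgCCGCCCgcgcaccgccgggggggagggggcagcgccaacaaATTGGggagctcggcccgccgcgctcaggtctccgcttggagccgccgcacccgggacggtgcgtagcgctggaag
COL4A2 (chr13:110307034-110307333, plus strand): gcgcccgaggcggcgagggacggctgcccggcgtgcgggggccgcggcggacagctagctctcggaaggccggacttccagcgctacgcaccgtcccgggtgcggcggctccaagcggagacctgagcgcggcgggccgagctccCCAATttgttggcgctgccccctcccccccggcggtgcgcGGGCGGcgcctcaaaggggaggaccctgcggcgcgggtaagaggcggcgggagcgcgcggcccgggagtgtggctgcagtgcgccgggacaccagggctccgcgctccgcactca
COL6A2 (chr21:46097862-46098161, plus strand): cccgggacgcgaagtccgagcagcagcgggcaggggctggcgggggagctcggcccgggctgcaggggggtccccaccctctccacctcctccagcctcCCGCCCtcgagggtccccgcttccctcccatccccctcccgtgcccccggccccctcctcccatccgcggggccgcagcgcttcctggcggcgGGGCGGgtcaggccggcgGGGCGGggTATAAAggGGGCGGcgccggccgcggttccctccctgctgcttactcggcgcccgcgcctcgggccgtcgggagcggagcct
COL7A1 (chr3:48595280-48595579, minus strand): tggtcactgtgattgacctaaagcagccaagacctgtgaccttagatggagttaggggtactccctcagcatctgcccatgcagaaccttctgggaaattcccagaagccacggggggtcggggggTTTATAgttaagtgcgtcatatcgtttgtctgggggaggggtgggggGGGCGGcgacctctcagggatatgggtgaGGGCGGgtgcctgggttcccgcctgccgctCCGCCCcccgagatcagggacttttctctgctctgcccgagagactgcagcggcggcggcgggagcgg
COL10A1 (chr6:116158723-116159022, minus strand): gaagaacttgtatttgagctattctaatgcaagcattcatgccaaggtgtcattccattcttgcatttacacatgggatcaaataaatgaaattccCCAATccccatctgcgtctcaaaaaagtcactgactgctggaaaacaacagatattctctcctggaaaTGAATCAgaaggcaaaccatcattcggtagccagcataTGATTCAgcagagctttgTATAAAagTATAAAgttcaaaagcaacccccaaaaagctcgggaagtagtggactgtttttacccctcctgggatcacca
COL11A1 (chr1:103108473-103108772, minus strand): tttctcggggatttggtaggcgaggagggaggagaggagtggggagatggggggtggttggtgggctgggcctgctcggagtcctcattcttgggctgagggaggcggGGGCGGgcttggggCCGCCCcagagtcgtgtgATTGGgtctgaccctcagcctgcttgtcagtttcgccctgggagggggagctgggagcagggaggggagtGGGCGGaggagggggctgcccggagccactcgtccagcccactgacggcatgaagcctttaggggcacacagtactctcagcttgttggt
CCAAT was in 14 of the 44 collagen windows against 34.6% of 35116 windows of all genes. TATAAA was in 8 of 44 against 11.5%, GGGCGG in 24 of 44 against 45.0%, and TGANTCA in 1 of 44, the COL10A1 window above, against 7.70%. COL10A1 also has windows at other start sites, not printed, and these hold no TGANTCA. A match describes the letters of a window and not a site in use.

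Of the 44 collagen genes, 33 passed the filter on low counts and were tested, and 11 did not (COL2A1, COL4A3, COL4A4, COL6A5, COL6A6, COL9A1, COL20A1, COL21A1, COL23A1, COL25A1 and COL26A1), none with a group mean above 0.180 CPM. The untested genes include the cartilage chains COL2A1 and COL9A1, the type IV chains COL4A3 and COL4A4 and the neuronal COL25A1. The filter keeps a gene that is high in a single group, so counts over the 33 describe them and not all members.

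The first comparison asked how collagen transcripts differed between senescent and growing cells. In 4OHT siNT, COL1A1, COL1A2, COL3A1 and COL11A1 were lower than in DMSO siNT, the 4 tested type IV and 3 tested type VI chains were higher, and COL7A1, COL5A3 and COL10A1 were many-fold higher. Of the 33 genes tested, 17 rose and 12 fell (edgeR quasi-likelihood test, adjusted p under 0.05), where 27.0% of all 19473 genes tested rose and 27.4% fell. The median log2 fold change over the 33 genes was 0.48, beside 0.00 for all genes tested.

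The second comparison asked what SMARCA4 knockdown did in senescent cells. No collagen was called higher and 22 of 33 fell, where 10.4% of all genes rose and 13.8% fell. No collagen was higher even at an unadjusted p under 0.05, and DESeq2 also called 0 higher and 22 lower, where of the 23656 genes that it gave an adjusted p it called 9.57% higher and 21.6% in either direction, 2837 of them lower. With both siRNA numbers pooled, the fall was largest for COL11A1, COL17A1, COL10A1 and COL22A1 in fold, and for COL1A1 and COL6A3 in CPM, whereas COL6A1 and COL6A2 did not pass the test. The filter kept COL17A1 and COL22A1 through siNT libraries, where they are higher, which favors their falls. The median log2 fold change was -0.68, beside -0.02 for all genes.

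The third comparison, 4OHT siSMARCA4 against DMSO siNT, shares its libraries with the others and is no independent evidence. In it 9 collagens were higher and 15 lower, where 26.5% of all genes rose and 28.6% fell.

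**Figure D1:**
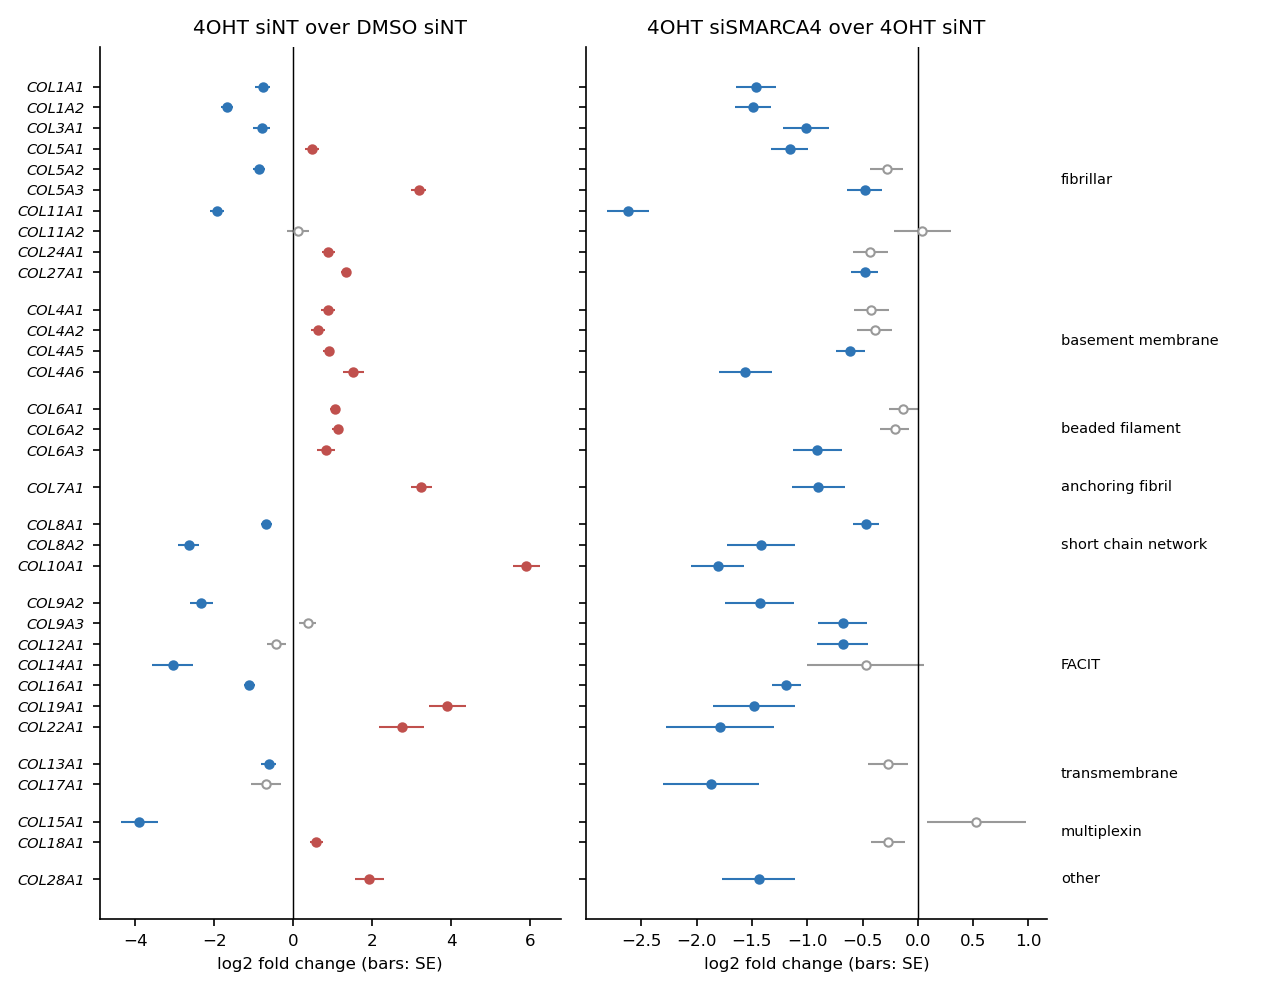
Log2 fold change (x axis, bars are standard errors) of the 33 tested collagen genes, grouped by structural class, for 4OHT siNT over DMSO siNT (left) and 4OHT siSMARCA4 over 4OHT siNT (right). Red points were called higher, blue points lower, and open grey points did not pass the test. The left panel holds points on both sides of 0, from -3.90 to 5.90, and all filled points of the right panel lie below 0.

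Collagens took 3.08 ± 0.428% of gene counts in DMSO siNT (n = 5), 2.76 ± 0.290% in 4OHT siNT (n = 6) and 1.79 ± 0.305% in 4OHT siSMARCA4 (n = 6). The ranges of the DMSO siNT (2.40 to 3.49%) and 4OHT siNT (2.39 to 3.22%) libraries overlapped, and every 4OHT siSMARCA4 library (1.29 to 2.2%) lay below both. Fibrillar chains took 2.03 ± 0.260%, 0.975 ± 0.109% and 0.394 ± 0.0897% of gene counts in the 3 groups, and the type VI chains 0.742 ± 0.163%, 1.38 ± 0.185% and 1.10 ± 0.205%. Type I chains made up 59.8 ± 3.48% of all collagen counts in DMSO siNT, 29.7 ± 2.39% in 4OHT siNT and 16.9 ± 3.6% in 4OHT siSMARCA4. A longer transcript gives more counts, so the same shares were also taken per kb of exon. That length joins all annotated exons of a gene and can exceed the length of the transcript made. It was 9007 bases for COL1A1, 10812 for COL1A2, 5536 for COL6A1, 5334 for COL6A2 and 21516 for COL6A3. Shares and orders per kb depend on it. On that scale type I was 56.5 ± 3.40%, 26.3 ± 2.05% and 13.7 ± 3.19% of the collagen level, and type VI was 29.7 ± 3.16%, 58.9 ± 1.66% and 72.6 ± 2.80%. These sums over the members are descriptions and were not tested.

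**Figure D2:**
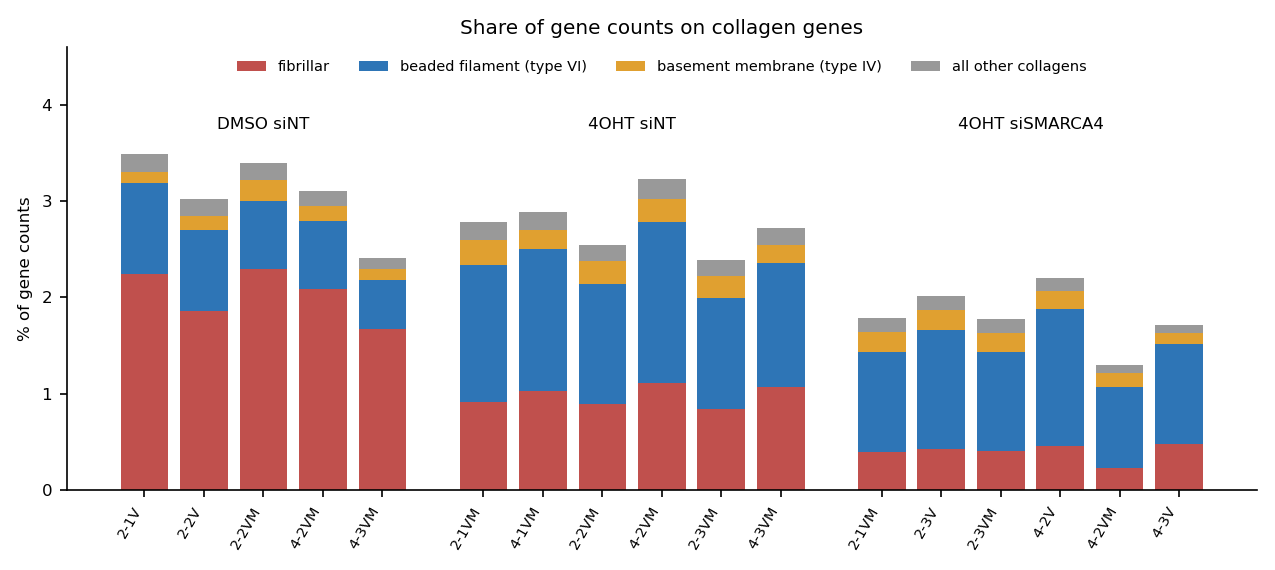
Percent of gene counts on collagen genes (y axis) in each of the 17 libraries (x axis, siRNA number and tag), stacked by class. Fibrillar collagens (red) are the largest part in all 5 DMSO siNT libraries, and type VI (blue) is the largest in all 12 4OHT libraries.

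The order of levels per kb of exon changed accordingly. In DMSO siNT the highest levels were COL1A1 at 1196 ± 173 CPM per kb, COL1A2 at 604 ± 63.0, COL6A2 at 453 ± 68.5 and COL6A1 at 382 ± 77.5, the intervals of mean ± SD of COL6A2 and COL6A1 overlapping. COL3A1 and COL6A3 followed at 115 ± 40.4 and 113 ± 30.2, again with overlapping intervals. In 4OHT siNT the order was COL6A2 (994 ± 139), COL6A1 (793 ± 128), COL1A1 (699 ± 103), COL6A3 (201 ± 31.5) and COL1A2 (189 ± 31.0), where the intervals overlapped between COL6A2 and COL6A1, COL6A1 and COL1A1, and COL6A3 and COL1A2. In 4OHT siSMARCA4 the order of these 5 genes was the same, with COL6A2 at 861 ± 167, COL6A1 at 726 ± 76.8 and COL1A1 at 255 ± 78.3 CPM per kb, and the intervals again overlapped between COL6A2 and COL6A1 and between COL6A3 (107 ± 42.6) and COL1A2 (67.4 ± 16.4).

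Type I collagen is the main fiber of lung and skin, and its usual molecule joins COL1A1 chains with a COL1A2 chain. COL1A1 (ENSG00000108821, chr17:50184101-50201632, minus strand, GRCh38) was at 11270, 9404, 13010, 10990 and 9182 CPM in the 5 DMSO siNT libraries. In 4OHT siNT its lowest, median and highest values were 5199, 6162 and 7521 CPM, and in 4OHT siSMARCA4 1223, 2291 and 3236 CPM. The 3 groups did not overlap. COL1A1 fell by 0.78 on the log2 scale in 4OHT siNT (SE 0.18, edgeR adjusted p = 0.00132) and by a further 1.46 under siSMARCA4 (SE 0.18, edgeR adjusted p = 2.84e-05), a 2.75-fold lower level.

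COL1A2 (ENSG00000164692, chr7:94394895-94431227, plus strand) fell more than COL1A1 on senescence. It was at 7385, 5825, 6305, 7110 and 6042 CPM in DMSO siNT, at a lowest, median and highest of 1713, 2030 and 2405 CPM in 4OHT siNT, and at 384, 764 and 877 CPM in 4OHT siSMARCA4. No library of one group reached another group. The log2 fold change was -1.68 (SE 0.16, edgeR adjusted p = 7.6e-08) in 4OHT siNT and -1.49 (SE 0.16, edgeR adjusted p = 9.93e-06) under siSMARCA4. COL1A2 in 4OHT siSMARCA4 stood 8.97-fold below DMSO siNT.

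COL3A1 (ENSG00000168542, chr2:188974373-189012746), whose type III homotrimer joins type I in fibers, was at 1235, 727, 690, 721 and 503.5 CPM in DMSO siNT. It had a lowest, median and highest of 407, 427 and 538 CPM in 4OHT siNT and of 117, 232 and 289 CPM in 4OHT siSMARCA4. One DMSO siNT library lay below the highest 4OHT siNT library, and all 4OHT siSMARCA4 libraries lay below 4OHT siNT. The log2 fold changes were -0.80 (SE 0.22, edgeR adjusted p = 0.00451) and -1.01 (SE 0.21, edgeR adjusted p = 0.00225). The first call was lost with siRNA number 4 libraries alone (log2 -0.43), with VM libraries alone (-0.54) and with the tag as a replicate block (-0.61).

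**Figure D3:**
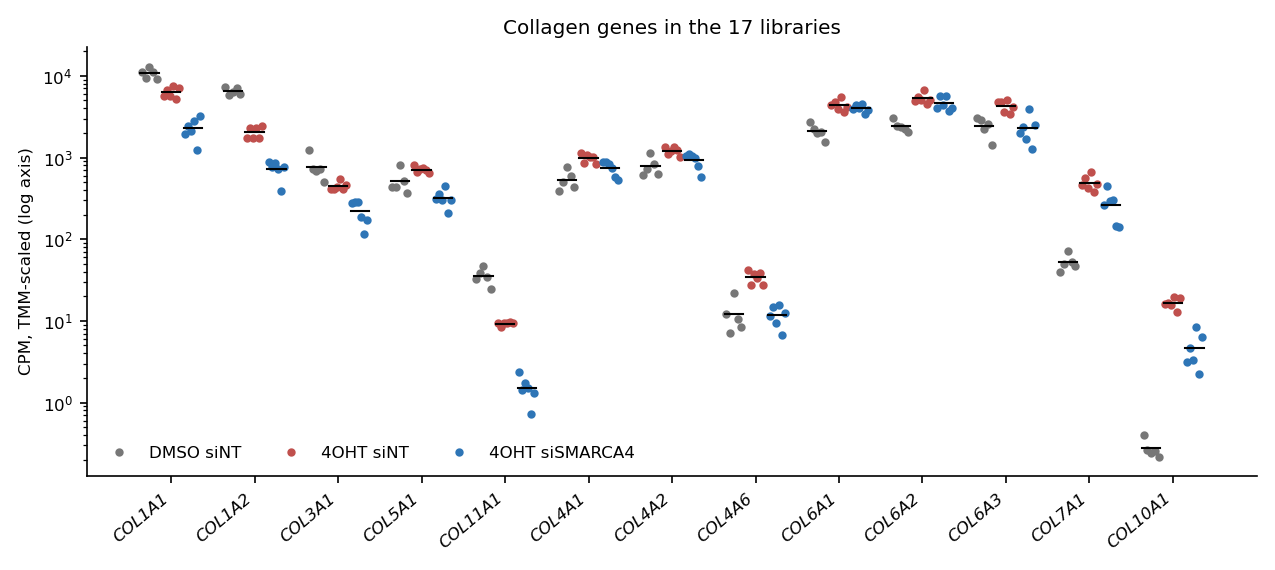
TMM-scaled CPM (y axis, log scale) of 13 collagen genes in each library; points are libraries and black lines group means. COL1A1, COL1A2 and COL11A1 step down from DMSO siNT to 4OHT siNT to 4OHT siSMARCA4 without overlap, while COL6A1 and COL6A2 are higher in both 4OHT groups than in DMSO siNT.

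Type V and XI chains are minor parts of fibrils that help to start them and set their width. They did not move alike. COL11A1 (ENSG00000060718, chr1:102876467-103108872) was at 32.3, 38.8, 46.8, 34.3 and 24.8 CPM in DMSO siNT, at 8.41 to 9.58 CPM with a median of 9.43 in 4OHT siNT, and at 0.724 to 2.37 CPM with a median of 1.46 in 4OHT siSMARCA4. The 3 groups were far apart. COL11A1 had log2 fold changes of -1.93 (SE 0.18) and -2.62 (SE 0.19) in the 2 comparisons (edgeR adjusted p = 4.77e-08 and 2.27e-07), the second being the largest knockdown fall among the collagens tested when both siRNA numbers were pooled. In a fit with an effect for each number, COL22A1 was lower with number 2, at -3.34 beside -2.37 for COL11A1, and with number 4 it was at -0.66 beside -2.93.

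COL5A1 rose weakly in 4OHT siNT (log2 fold change 0.48, SE 0.18, edgeR adjusted p = 0.0308), a call lost without any of the libraries DMSO siNT 2-1V (log2 0.41), 2-2V (0.41), 4-2VM (0.47) and 4-3VM (0.38) or 4OHT siNT 2-1VM (0.44). Under siSMARCA4 it fell by 1.16 (SE 0.17, edgeR adjusted p = 0.000154), from 642 to 814 CPM in 4OHT siNT to 211 to 443 CPM. COL5A2, which pairs with COL5A1 in the common type V molecule, fell by 0.86 on the log2 scale in 4OHT siNT (SE 0.15, edgeR adjusted p = 9.28e-05) and had a log2 difference of -0.28 under siSMARCA4 that did not pass the test (edgeR adjusted p = 0.186).

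COL5A3, the third type V chain, was at 12.6, 11.7, 11.4, 10.4 and 6.34 CPM in DMSO siNT, 74.2 to 108 CPM (median 99.9) in 4OHT siNT and 43.2 to 82.2 CPM (median 72.6) in 4OHT siSMARCA4. Its 4OHT siNT level was 9.05-fold higher than in DMSO siNT (log2 3.18, SE 0.19, edgeR adjusted p = 9.6e-11). Its knockdown difference was -0.48 (SE 0.16, edgeR adjusted p = 0.0364), and that call was lost when any 1 of 7 libraries was left out, at log2 values of -0.38 without 4OHT siSMARCA4 4-3V to -0.48 without 4-2V; the others were 4OHT siSMARCA4 4-2VM and 4OHT siNT 2-1VM, 2-2VM, 4-2VM and 2-3VM. Of the other fibrillar genes, COL27A1 rose by 1.33 and fell by 0.48 on the log2 scale, COL24A1 rose by 0.89 with a knockdown difference of -0.43 that did not pass (it passed without 4OHT siNT 2-2VM at -0.49 or 2-3VM at -0.47, without 4OHT siSMARCA4 2-3V at -0.50, and with siRNA number 4 libraries alone at -0.83), and COL11A2 differed by 0.12 and 0.04 and passed neither test.

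In the fibrillar class as a whole, 4 of 10 tested genes rose and 5 fell in 4OHT siNT, where 27.0% and 27.4% of all genes did, and 7 of 10 fell under siSMARCA4, where 13.8% of all genes did.

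Type IV collagen is the network of basement membranes, and its COL4A1 and COL4A2 chains assemble together. COL4A1 (ENSG00000187498, chr13:110148963-110307157, minus strand) and COL4A2 (ENSG00000134871, chr13:110305812-110513209, plus strand) start toward opposite sides, and their annotated spans overlap by 1346 bases. COL4A1 was at 389, 506, 770, 589 and 432 CPM in DMSO siNT, 832 to 1143 CPM (median 1026) in 4OHT siNT and 526 to 890 CPM (median 782) in 4OHT siSMARCA4. COL4A2 was at 618, 733, 1134, 827 and 619 CPM, 1017 to 1349 CPM (median 1219) and 581 to 1094 CPM (median 1005). The 4OHT siNT libraries lay above all DMSO siNT libraries for COL4A1, and for COL4A2 the DMSO siNT library 2-2VM reached into them.

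COL4A1 rose by 0.88 (SE 0.17, edgeR adjusted p = 0.000218) and COL4A2 by 0.62 (SE 0.17, edgeR adjusted p = 0.00409) on the log2 scale. Their knockdown differences were -0.42 and -0.39 (SE 0.16 for both) and did not pass the test (edgeR adjusted p = 0.0655 and 0.0796), except that COL4A1 passed when only the 2 groups compared were fitted (log2 -0.41, edgeR adjusted p = 0.038).

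The X-linked pair COL4A5 and COL4A6 also start head to head, with windows that share 121 bases. Both rose in 4OHT siNT, by 0.90 (SE 0.14) and 1.52 (SE 0.26), and both fell under siSMARCA4, by 0.61 (SE 0.13, edgeR adjusted p = 0.0027) and 1.56 (SE 0.24, edgeR adjusted p = 0.000218). COL4A6 was at 7.09 to 22.1 CPM in DMSO siNT, 27.2 to 42.4 CPM in 4OHT siNT and 6.64 to 15.4 CPM in 4OHT siSMARCA4, so that the outer groups overlapped and the 4OHT siNT group stood apart. All 4 tested type IV genes rose in 4OHT siNT (27.0% of all genes) and 2 of 4 fell under siSMARCA4 (13.8% of all genes).

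Type VI collagen is built from COL6A1, COL6A2 and COL6A3, with COL6A3 the largest chain. COL6A1 (ENSG00000142156, chr21:45981770-46005050) was at 2721, 2248, 2004, 2068 and 1534 CPM in DMSO siNT, 3586 to 5542 CPM (median 4232) in 4OHT siNT and 3391 to 4543 CPM (median 3976) in 4OHT siSMARCA4. COL6A2 (ENSG00000142173, chr21:46098112-46132848) was at 3006, 2438, 2394, 2216 and 2035 CPM, 4552 to 6692 CPM (median 5067) and 3695 to 5738 CPM (median 4227). Both genes were higher in every 4OHT library of either siRNA than in any DMSO siNT library, and the 4OHT groups overlapped.

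The rise in 4OHT siNT was 1.05 (SE 0.13, edgeR adjusted p = 2.05e-06) for COL6A1 and 1.13 (SE 0.14, edgeR adjusted p = 9.31e-07) for COL6A2. The knockdown differences were -0.13 (SE 0.13) and -0.21 (SE 0.13), with edgeR adjusted p = 0.507 and 0.253. That of COL6A2 was called lower with V or VM as a covariate (-0.38, edgeR adjusted p = 0.0259) and with VM libraries alone (-0.37, edgeR adjusted p = 0.0218).

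COL6A3 (ENSG00000163359, chr2:237324003-237414328) parted from them under the knockdown. It was at 3071, 2911, 2234, 2546 and 1431 CPM in DMSO siNT, 3448 to 5115 CPM (median 4463) in 4OHT siNT and 1268 to 3920 CPM (median 2169) in 4OHT siSMARCA4. It rose by 0.82 (SE 0.23, edgeR adjusted p = 0.00583) and fell by 0.91 (SE 0.22, edgeR adjusted p = 0.00623), and a single knockdown library, 4-2V, overlapped 4OHT siNT. Against DMSO siNT its level in 4OHT siSMARCA4 differed by -0.09 (SE 0.23, edgeR adjusted p = 0.765).

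Unequal changes, within types and between types III and I, were tested with the log2 ratio of counts between chains in each library, which needs no scaling. The 12 tests were 6 ratios in 2 comparisons, with exact 2-sided permutation tests adjusted over the 12. The smallest p these designs allow is 0.00433 for 5 against 6 libraries and 0.00216 for 6 against 6. The COL1A1/COL1A2 ratio rose from 0.72 ± 0.19 to 1.63 ± 0.07 in 4OHT siNT (exact permutation p = 0.00433, adjusted 0.0104), that is from 1.64 to 3.09 counts of COL1A1 for each count of COL1A2. Under siSMARCA4 it was 1.64 ± 0.36 (exact permutation p = 0.948, adjusted 0.948), with values of 1.13, 1.68 and 1.32 for siRNA number 2 and 1.94, 1.67 and 2.08 for number 4.

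The COL5A1/COL5A2 ratio moved in both comparisons, from 0.18 ± 0.36 to 1.56 ± 0.09 (exact permutation p = 0.00433, adjusted 0.0104) and back to 0.70 ± 0.46 (exact permutation p = 0.00216, adjusted 0.0104). The COL6A3/COL6A1 ratio fell from -0.02 ± 0.09 to -0.89 ± 0.44 under siSMARCA4 without overlap (exact permutation p = 0.00216, adjusted 0.0104). Its difference of -0.21 in 4OHT siNT reached an exact permutation p of 0.0433 but not the threshold after adjustment (0.0866). The COL4A1/COL4A2 ratio rose by 0.26 in 4OHT siNT, from -0.55 ± 0.07 to -0.29 ± 0.08 (exact permutation p = 0.00433, adjusted 0.0104), and differed by -0.02 under siSMARCA4 (exact permutation p = 0.758, adjusted 0.910).

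The other 2 ratios passed no test. COL6A1/COL6A2 differed by -0.07 (exact permutation p = 0.277) and 0.10 (exact permutation p = 0.149), and COL3A1/COL1A1 by 0.03 (exact permutation p = 0.900) and 0.43 (exact permutation p = 0.110). The second spread widely under siSMARCA4, at -2.78, -3.12 and -2.88 for siRNA number 2 and -3.91, -3.38 and -4.23 for number 4.

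**Figure D4:**
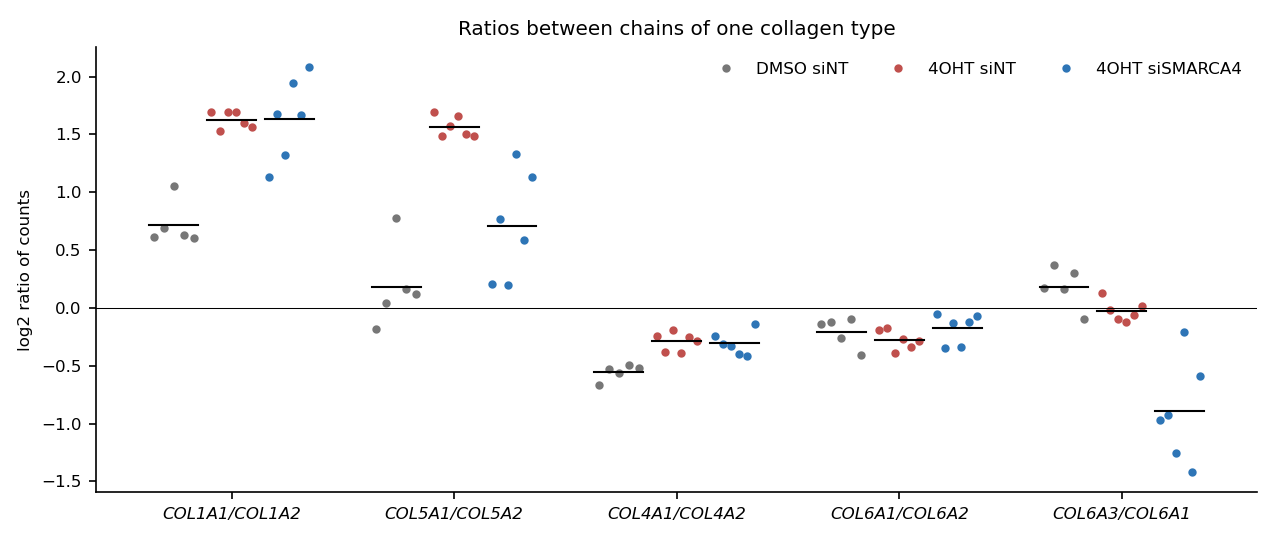
Log2 ratio of counts (y axis) between chains of one collagen type in each library; points are libraries and black lines group means. COL1A1/COL1A2, COL5A1/COL5A2 and COL4A1/COL4A2 are higher in every 4OHT siNT library than in every DMSO siNT library, and COL6A3/COL6A1 is lower in every 4OHT siSMARCA4 library than in every 4OHT siNT library.

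COL7A1 (chr3:48564073-48595329) encodes the collagen of anchoring fibrils below the epidermis. It was at 39.7, 49.7, 71.6, 53.2 and 47.4 CPM in DMSO siNT, 376 to 664 CPM (median 467) in 4OHT siNT and 139 to 442 CPM (median 279) in 4OHT siSMARCA4. The rise was 9.44-fold (log2 3.24, SE 0.27, edgeR adjusted p = 1.05e-08) and the knockdown difference was -0.90 (SE 0.24, edgeR adjusted p = 0.00988), with some overlap between the 4OHT groups. The knockdown call was lost with siRNA number 2 libraries alone (log2 -0.30, edgeR adjusted p = 0.37).

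COL10A1 (chr6:116118909-116158747), the short-chain collagen of hypertrophic cartilage, was close to the detection limit in growing cells. It was at 0.402, 0.259, 0.243, 0.252 and 0.218 CPM in DMSO siNT, on 76 counts in all, at 12.9 to 19.4 CPM (median 16.1) in 4OHT siNT and at 2.25 to 8.504 CPM (median 4.01) in 4OHT siSMARCA4. No group overlapped another. The rise of 5.90 (SE 0.34, edgeR adjusted p = 5.17e-11) was the largest of all collagens tested, and siSMARCA4 lowered it by 1.81 (SE 0.24, edgeR adjusted p = 6.19e-05). COL10A1 lies inside NT5DC1 on the opposite strand with no shared exon, and counting used the strand.

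The other short-chain network genes, COL8A1 and COL8A2, known from vessel walls and the cornea, fell in both comparisons. COL8A1 fell by 0.68 and 0.47, the second call being lost with siRNA number 4 libraries alone (log2 -0.17, edgeR adjusted p = 0.502). COL8A2 was at 2.27, 2.43, 1.89, 1.72 and 0.990 CPM in DMSO siNT, 0.231 to 0.345 CPM (median 0.296) in 4OHT siNT and 0.0395 to 0.190 CPM (median 0.0886) in 4OHT siSMARCA4, falls of 2.65 (SE 0.27) and 1.42 (SE 0.31). The last group rests on 36 counts. The filter kept COL8A2 through the siNT groups, where it is higher, which favors the knockdown fall.

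Collagens that sit on fibril surfaces, the FACIT class, mostly fell under the knockdown with both siRNA numbers pooled. Of 7 tested, 2 rose and 3 fell in 4OHT siNT, near or little above the 27.0% and 27.4% of all genes, and 6 of 7 fell under siSMARCA4, where 13.8% of all genes fell. With siRNA number 2 libraries alone COL9A2, COL9A3 and COL12A1 lost that call, and with number 4 alone COL9A3, COL12A1, COL19A1 and COL22A1 did. COL19A1 was at 0.122, 0.0199, 0.191, 0.0387 and 0.134 CPM in DMSO siNT (29 counts in all), 1.18 to 2.05 CPM (median 1.59) in 4OHT siNT and 0.237 to 1.29 CPM (median 0.408) in 4OHT siSMARCA4. Its log2 fold changes were 3.90 (SE 0.47, edgeR adjusted p = 1.1e-06) and -1.48 (SE 0.37, edgeR adjusted p = 0.00725). The filter kept COL19A1 through the 4OHT groups, which favors its rise. Its exons share 85 bases with LMBRD1 on the opposite strand.

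COL22A1, a collagen of tissue junctions, was at 0.0349, 0.0199, 0.208, 0.174 and 0.151 CPM in DMSO siNT, 0.505 to 1.19 CPM (median 0.789) in 4OHT siNT and 0.0395 to 0.527 CPM (median 0.174) in 4OHT siSMARCA4. It rose by 2.75 (SE 0.57, edgeR adjusted p = 0.000424) and fell by 1.79 (SE 0.49, edgeR adjusted p = 0.0129), on 33, 244 and 79 counts. The filter kept COL22A1 through 4OHT siNT, which favors both changes. COL16A1, at far higher levels, fell in both comparisons without overlap, from 188 ± 29.6 to 86.6 ± 4.86 and 37.9 ± 8.28 CPM (log2 -1.12, SE 0.14, and -1.19, SE 0.13).

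COL9A2, a chain of cartilage type IX, was at 4.24, 5.51, 11.8, 4.49 and 4.31 CPM in DMSO siNT, 0.652 to 1.54 CPM (median 1.25) in 4OHT siNT and 0.262 to 0.673 CPM (median 0.381) in 4OHT siSMARCA4. It fell by 2.33 (SE 0.29) and 1.43 (SE 0.31) on the log2 scale. COL9A3 differed by 0.36 in 4OHT siNT (edgeR adjusted p = 0.184) and fell by 0.68 under siSMARCA4 (SE 0.22, edgeR adjusted p = 0.029), a call lost without 4OHT siNT 2-1VM (log2 -0.66) or 2-3VM (-0.62) or without 4OHT siSMARCA4 2-1VM (-0.64).

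COL14A1, which lies along type I fibrils, was at 16.2, 6.21, 1.84, 4.36 and 1.65 CPM in DMSO siNT, 0.374 to 1.01 CPM (median 0.765) in 4OHT siNT and 0.141 to 0.848 CPM (median 0.542) in 4OHT siSMARCA4. DMSO siNT did not overlap 4OHT siNT but spread widely within itself, with 2-1V highest. COL14A1 fell by 3.05 (SE 0.52, edgeR adjusted p = 6.35e-05), with a log2 value of -2.29 without that library, and its knockdown difference of -0.47 (SE 0.53) did not pass. COL12A1, its relative, differed by -0.43 in 4OHT siNT (edgeR adjusted p = 0.143, but a call at log2 -0.61 without DMSO siNT 4-3VM). Under siSMARCA4 COL12A1 fell by 0.68 (SE 0.23, edgeR adjusted p = 0.0384), and that call was lost without any 1 of 8 libraries, 4OHT siNT 2-1VM, 4-1VM, 4-2VM or 4-3VM or 4OHT siSMARCA4 2-3V, 2-3VM, 4-2VM or 4-3V, at log2 values of -0.54 to -0.70.

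The multiplexins of vessel and basement membrane zones differed from each other. COL15A1 was at 34.9, 12.04, 11.6, 8.19 and 4.36 CPM in DMSO siNT, 0.712 to 1.52 CPM (median 0.849) in 4OHT siNT and 0.696 to 2.60 CPM (median 1.13) in 4OHT siSMARCA4. It had the largest fall in 4OHT siNT, 3.90 (SE 0.47, edgeR adjusted p = 1.06e-06), with a log2 value of -3.26 without DMSO siNT 2-1V, and a knockdown difference of 0.53 (SE 0.45) that did not pass. COL18A1, the source of endostatin, rose by 0.58 (SE 0.16, edgeR adjusted p = 0.00414) and differed by -0.27 (edgeR adjusted p = 0.204) under siSMARCA4. Its exons share 1563 bases with SLC19A1 on the opposite strand.

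Of the transmembrane collagens, COL13A1 fell by 0.62 in 4OHT siNT (SE 0.19), a call lost with siRNA number 2 libraries alone (log2 -0.41, edgeR adjusted p = 0.204), with a knockdown difference of -0.27 that did not pass. COL17A1, a hemidesmosome protein, was at 0.140, 0.458, 0.677, 0.736 and 0.571 CPM in DMSO siNT, 0.0878 to 0.497 CPM (median 0.362) in 4OHT siNT and 0.0395 to 0.116 CPM (median 0.0892) in 4OHT siSMARCA4, on 142, 96 and 28 counts. Its senescence difference of -0.68 did not pass (a call at -0.94 without DMSO siNT 2-1V), and it fell by 1.87 under siSMARCA4 (SE 0.43, edgeR adjusted p = 0.00436). The filter kept COL17A1 through the siNT groups, where it is higher, which favors the knockdown fall. COL28A1 rose by 1.92 (SE 0.37) and fell by 1.44 (SE 0.33), at means of 0.0970, 0.374 and 0.134 CPM on 27, 113 and 45 counts. It was kept by the filter through 4OHT siNT, which favors both changes.

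Set side by side with growing cells, 4OHT siSMARCA4 left COL10A1 (log2 4.09, SE 0.33), COL5A3 (2.69, SE 0.19), COL19A1 (2.42, SE 0.47) and COL7A1 (2.34, SE 0.26) highest above DMSO siNT. COL11A1 (-4.55, SE 0.21), COL8A2 (-4.07, SE 0.30), COL9A2 (-3.76, SE 0.32) and COL14A1 (-3.52, SE 0.54) were lowest. The filter kept COL19A1 through the 4OHT groups and COL8A2 through the siNT groups, which favors both of these differences. Without DMSO siNT 2-1V COL14A1 was at -2.75, above COL1A2, which stood at -3.17 and ran from -3.23 to -3.04 when a library was left out. COL4A6 and COL6A3 differed from DMSO siNT by -0.04 and -0.09 and did not pass, except COL6A3 with siRNA number 2 libraries alone (-0.44, edgeR adjusted p = 0.0434). COL4A1 was 0.47 higher (edgeR adjusted p = 0.0252), a call lost without any of DMSO siNT 2-1V (log2 0.35), 2-2V (0.43) or 4-3VM (0.40) or 4OHT siSMARCA4 2-1VM or 2-3V (0.41 for both), and COL24A1 0.46 higher (edgeR adjusted p = 0.0275), lost without any of those 5 or 4OHT siSMARCA4 2-3VM, at log2 0.38 to 0.44. In the fits that left out 1 library, COL18A1 (0.31) passed only without 4OHT siSMARCA4 4-3V (0.43), and COL4A5 (0.28) only without DMSO siNT 2-2VM (0.37) or 4OHT siSMARCA4 4-2VM (0.36). COL18A1 also passed with siRNA number 2 libraries (0.54) or VM libraries (0.52) alone. The calls of COL4A1 and COL24A1 were lost with number 4 or VM libraries alone, at log2 0.27 to 0.38.

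One knockdown library and the siRNA numbers bear on these values. 4OHT siSMARCA4 4-2VM was the lowest of its group for 15 of the 33 genes and the highest for none. Without it 20 collagens were called lower in place of 22, where 2214 of all 19448 genes were. With siRNA number 2 libraries alone 16 collagens fell and 0 rose, where 12.1% of all genes fell and 10.7% rose. With number 4 libraries alone 12 fell and 0 rose, where 2.38% of all genes fell and 3.64% rose, so that calls were fewer among all genes too. The 6 knockdown calls lost with number 2 alone were those of COL9A2 (log2 -1.17), COL9A3 (-0.51), COL12A1 (-0.39), COL7A1 (-0.30), COL3A1 (-0.53) and COL27A1 (-0.46). The 12 lost with number 4 alone were those of COL28A1 (-1.44), COL17A1 (-1.32), COL8A2 (-1.19), COL19A1 (-1.02), COL12A1 (-0.92), COL6A3 (-0.83), COL9A3 (-0.82), COL22A1 (-0.63), COL5A3 (-0.62), COL4A5 (-0.49), COL27A1 (-0.42) and COL8A1 (-0.17), while COL24A1 (-0.83) and COL5A2 (-0.59) passed there and not with all libraries. The 4OHT siNT falls of COL1A1 and COL3A1 did not pass with number 4 libraries alone (log2 -0.55, edgeR adjusted p = 0.172, and -0.43, edgeR adjusted p = 0.125), nor did that of COL3A1 with VM libraries alone (log2 -0.54) or the rise of COL5A1 with number 2 (0.38), number 4 (0.59) or VM libraries (0.33) alone. In 4OHT siNT, COL12A1 passed with number 2 alone (-0.82), and COL17A1 with number 4 (-1.53) or VM libraries (-1.06) alone, though not with all. For the knockdown, a fit over all libraries with an effect for each number called 15 collagens with number 2 and 18 with number 4. All of these were lower. Of all 19473 genes, 3699 and 3126 were called there in either direction. In that fit COL28A1, COL12A1, COL9A3, COL5A3 and COL4A5 were called with number 4, and COL27A1 with number 2. The knockdown effect differed there between numbers 2 and 4 for 0 of 33 collagens (edgeR, lowest adjusted p = 0.0967), as it did for 1.06% of all genes. At an unadjusted p under 0.05 there were 8, where 15.5% of all genes reached it, among them COL3A1 (log2 -0.57 with number 2 and -1.57 with number 4), COL1A2 (-1.07 and -1.91), COL7A1 (-0.33 and -1.54) and COL22A1 (-3.34 and -0.66). For the 4OHT effect, 0 of 33 collagens and 2.10% of all genes differed between the numbers, with 6 collagens and 26.1% of all genes at an unadjusted p under 0.05. Within the libraries tagged VM alone, 16 collagens rose and 12 fell in 4OHT siNT, where 23.5% and 27.0% of all genes did, and 20 fell under siSMARCA4, where 15.3% of all genes did; COL5A3 (-0.37), COL9A3 (-0.54) and COL12A1 (-0.70) lost that call there.

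Genes that make, process and bind collagen were counted from fixed lists. These counts stand beside the shares of all genes tested, of which 27.0% rose and 27.4% fell in 4OHT siNT and 10.4% rose and 13.8% fell under siSMARCA4. Of 20 biosynthesis enzymes and chaperones, 11 rose and 5 fell in 4OHT siNT, and 2 rose and 7 fell under siSMARCA4 (medians 0.26 and -0.16). The 5 that fell in 4OHT siNT and the 2 that rose under siSMARCA4 are near the shares of all genes. The 7 that fell under siSMARCA4 were 4 with no filter on low counts, where 1883 of all 43519 genes fell. They were 3 with siRNA number 2 libraries alone (12.1% of all genes) and 2 with number 4 libraries alone (2.38%), where calls were fewer among all genes too. With number 4 libraries alone 6 rose and 3 fell in 4OHT siNT, where 3995 and 4560 of all 19909 genes did. There 1 rose under siSMARCA4, where 3.64% of all genes did. The largest rises in 4OHT siNT were TMEM38B (0.93) and P4HA2 (0.89), a subunit of prolyl 4-hydroxylase, and the largest falls COLGALT2 (-2.44), a collagen galactosyltransferase, and P3H2 (-1.31), a prolyl 3-hydroxylase. Under siSMARCA4 P4HA3 (1.24) and TMEM38B (0.61) rose most, and P3H3 (-0.66) and PLOD1 (-0.60), a lysyl hydroxylase, fell most.

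Of 12 tested genes for propeptide removal and crosslinking, 3 rose and 7 fell in 4OHT siNT, and 1 rose and 6 fell under siSMARCA4 (medians -0.61 and -0.38), where the 3 and the 1 that rose are near the shares of all genes. The procollagen proteinases ADAMTS14 (2.47) and ADAMTS3 (1.74) rose most in 4OHT siNT, and PCOLCE2 (-2.69), an enhancer of C-propeptide removal, and LOX (-1.75), lysyl oxidase, fell most. Under siSMARCA4 ADAMTS2 (0.50) rose, and LOXL4 (-1.39) and LOXL3 (-1.37) fell most. PCOLCE2 was also called higher without 4OHT siSMARCA4 4-2V or 4-2VM, with siRNA number 2 libraries alone and with V or VM as a covariate. With number 4 libraries alone 4 fell in 4OHT siNT, where 4560 of all 19909 genes did, and 0 rose under siSMARCA4, where 3.64% did.

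Most of the collagen-cleaving proteases tested were higher in senescent cells. Of 7 tested, 6 rose and 0 fell in 4OHT siNT (median 1.71), led by MMP9 (5.55, from a mean of 0.0153 CPM) and MMP1 (3.65), interstitial collagenase. MMP9, near 0 in DMSO siNT, was kept by the filter through the 4OHT groups, which favors its rise. Under siSMARCA4 0 rose and 2 fell, MMP8 (-1.13) and CTSK (-0.61), while MMP1 alone was higher at an unadjusted p under 0.05 (log2 0.30, edgeR adjusted p = 0.107). MMP1 was called higher in 4 of 24 alternatives, among them only the 2 groups compared, V or VM as a covariate and VM libraries alone. MMP9 (log2 0.13 with all libraries) and FAP (-0.13) were called lower as well with the covariate and with VM libraries alone, the call of CTSK was lost with siRNA number 2 libraries alone, and that of MMP8 with number 4 libraries alone.

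Among 8 tested collagen receptors, 4 rose and 2 fell in 4OHT siNT, and 1 rose and 3 fell under siSMARCA4, where the 2 that fell in 4OHT siNT and the 1 that rose under siSMARCA4 are near the shares of all genes. The integrin subunits ITGA1 (1.43) and ITGA11 (1.27) rose most and ITGA10 (-1.60) and DDR2 (-0.68) fell most in 4OHT siNT, whereas under siSMARCA4 ITGA11 (-1.62) and ITGA1 (-1.07) fell most. The receptor called higher under siSMARCA4, ITGB1 (log2 0.24, SE 0.08, edgeR adjusted p = 0.0341), lost its call in 14 of 24 alternatives, including those without any 1 of 4OHT siNT 2-1VM, 4-1VM, 2-2VM, 4-2VM or 2-3VM or 4OHT siSMARCA4 2-1VM, 2-3V, 4-2V or 4-3V, each of which left 0 receptors higher. In 4OHT siNT the call of DDR2 was lost with siRNA number 4 libraries alone.

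Of 14 tested fibril partners, 0 rose and 10 fell under siSMARCA4 (median -0.79), with FMOD (-1.74) and BGN (-1.73), small leucine-rich proteoglycans, lowest. In 4OHT siNT 2 rose, TNC (1.88) and POSTN (1.77), and 7 fell, with DCN (-5.12) and PRELP (-2.48) lowest. Of 14 tested basement membrane partners, 6 rose and 5 fell in 4OHT siNT (27.0% and 27.4% of all genes), with LAMB3 (1.32) and NID1 (1.02) highest and HSPG2 (-2.30), perlecan, and LAMA2 (-1.76) lowest. Under siSMARCA4 LAMA3 rose (1.52) and 7 fell, with LAMA4 (-1.75) and HSPG2 (-0.73) lowest. With siRNA number 4 libraries alone, 5 fibril partners and 2 basement membrane partners fell under siSMARCA4 and 0 basement membrane partners rose, where 2.38% of all genes fell and 3.64% rose. There 3 basement membrane partners fell in 4OHT siNT, where 4560 of all 19909 genes did. With VM libraries alone NID2 (log2 -0.04 with all) was called higher under siSMARCA4 beside LAMA3.

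The tables also hold counts for single repeat copies, which give a second readout of the collagen loci. Of 8883 annotated copies inside collagen genes, 53 had enough counts to test, 46 in introns and 7 overlapping exons. In 4OHT siNT 24 of the 53 rose and 1 fell, where 18.1% of all 13026 repeat copies tested rose and 9.31% fell, and under siSMARCA4 0 rose and 5 fell, where 4.35% of all copies rose and 1.80% fell. All 24 that rose lie in introns. The copies carry no strand in these tables and were assigned to genes by position. Whether their reads come from the collagen transcript was not tested. Reads that map to several copies were divided among them. Copies of one gene share its span and are not separate observations. The filter keeps a copy that is high in a single group, so these counts describe the copies tested. Repeat copies were not fitted with V or VM as a covariate.

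COL6A2 held 12 of the 53 copies, and 9 of its 10 intronic copies rose in 4OHT siNT, by 1.77 to 4.54 on the log2 scale, beside 1.13 for the gene. Some were near 0 in DMSO siNT, such as MER52D at 0.0116 and MER52A at 0.0336 CPM, and were kept by the filter through the 4OHT groups. The filter thus favors their rises and the gap above the gene. A L1M4c copy at chr21:46103791 went from 0.830 ± 0.353 CPM in DMSO siNT to 5.37 ± 0.899 in 4OHT siNT and 5.96 ± 1.20 in 4OHT siSMARCA4 (log2 2.70, SE 0.23, edgeR adjusted p = 8.66e-08, and 0.15, SE 0.20, edgeR adjusted p = 0.706). Neither 4OHT group overlapped DMSO siNT. No COL6A2 copy was called under siSMARCA4. Summed over the 17 intronic copies with any count, the level was 4.77, 24.1 and 23.4 CPM in the 3 groups. These sums were scaled by library totals and the TMM factors of the gene fit, not on the scale of the single copies. Whether the gap between intron and gene differs from that of other genes was not tested.

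COL5A1 held 8 tested copies, all intronic. Of these, 6 rose in 4OHT siNT and 3 fell under siSMARCA4, among them neighboring L3b and L2b copies at 71815 and 72248 bases from the gene start, which rose by 2.38 (SE 0.58) and 2.22 (SE 0.48) and fell by 2.02 (SE 0.52) and 2.21 (SE 0.45), on means of 0.0619 and 0.0705 CPM in DMSO siNT. The filter kept the L3b and L2b copies through 4OHT siNT, where they are high, which favors both changes. In COL27A1 5 of 6 copies rose and 1 fell under siSMARCA4. In COL6A3 0 of 8 copies passed either test.

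**Figure D5:**
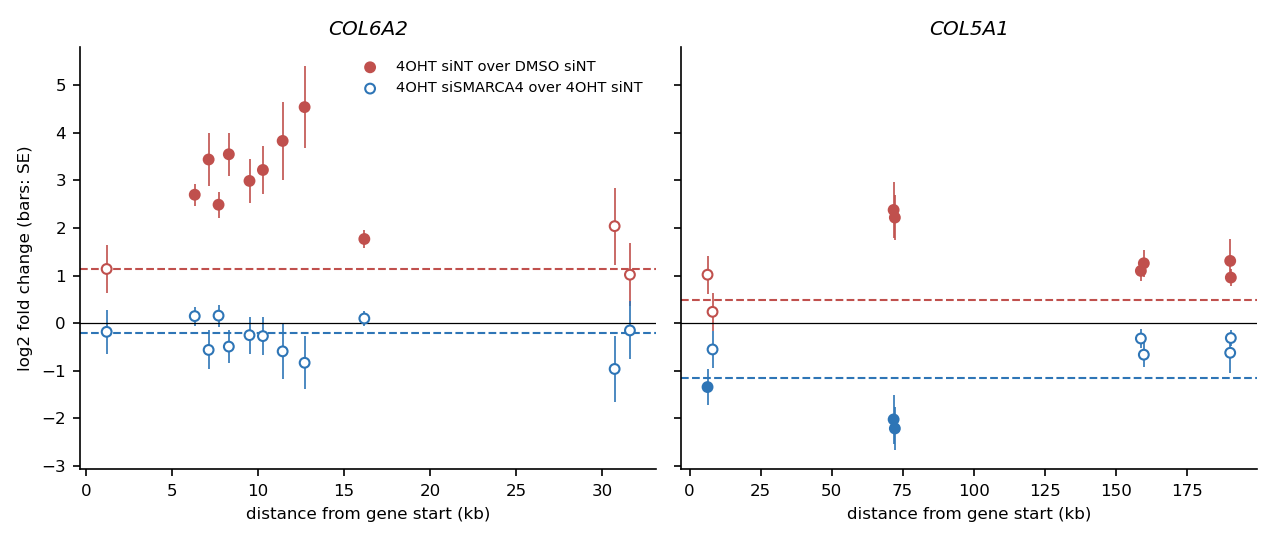
Log2 fold change (y axis, bars are standard errors) of tested repeat copies in COL6A2 and COL5A1 against distance from the gene start in kb. Filled points passed the test, dashed lines mark the gene's own log2 fold change in the same color. In COL6A2 the red points (4OHT siNT over DMSO siNT) between 6 and 17 kb lie above the gene's 1.13 and all blue points (siSMARCA4 over siNT), open because none passed, lie between -0.96 and 0.16.

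An L2-2_Mam copy that overlaps a COL1A2 exon by 59 bases (chr7:94419493-94419667) was at 2.37, 3.14, 2.96, 3.00 and 2.40 CPM in DMSO siNT and at 0.0604 to 0.364 CPM in 4OHT siSMARCA4. In 4OHT siNT it was at 0.606 to 1.02 CPM in 4 libraries and at 5.68 and 6.16 CPM in 4-2VM and 4-3VM. The knockdown fall was 3.41 (SE 0.60, edgeR adjusted p = 0.00559), beside 1.49 for the gene. The senescence difference of -0.15 (SE 0.53) did not pass, and both values include those 2 high libraries, without which repeat copies were not refitted. All 6 4OHT siNT libraries lay above all 6 4OHT siSMARCA4 libraries.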

How the data were processed

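RNA of 17 libraries of IMR90 ER:RAS cells was sequenced by the authors as directional poly(A) paired-end libraries. Per the study's methods and the submitters' processing notes, which give the version of HISAT2, the authors trimmed reads (cutadapt 4.7), aligned them to GRCh38 (HISAT2 2.2.1) and deposited estimated counts from TElocal for each gene and each repeat copy, with multi-mapped reads divided among copies by maximum likelihood. Gene identifiers fit GENCODE 44 for 62700 of 62754 genes, whereas the methods name another release.

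The deposited counts were whole numbers and were used as given. Genes were fitted with repeat subfamilies over all 3 groups (R 4.3.3, edgeR 4.0.16 quasi-likelihood test, TMM, filterByExpr with minimum count 10 and minimum total 15). P-values were Benjamini-Hochberg adjusted over genes, called under 0.05. The fold change's standard error was its size over the square root of F. Repeat copies with at least 10 counts in all were fitted with the genes under the same filter and adjusted among themselves. Scripts were tested on simulated data. Alternatives included DESeq2 1.42.0, which the authors used. Members, lists and tests were chosen with earlier results of these data known. Named with values per library were 8 common chains and, per comparison, the 4 largest called rises and falls; the levels of COL4A6, COL5A1, COL16A1 and COL28A1 were added after their values were seen. Ratio tests used scipy 1.17.1.

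Totals of 39109479 to 68978119 counts per library limit precision most for genes near 0. No 2 libraries had identical counts. The summed level of the leukocyte markers is not reported here.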

Additional observations from a re-analysis of the deposited data

Results flagged for a closer look

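Of 120 sets of values examined (33 genes, 6 chain ratios and the collagen share in each group), 8 had a library whose gap to the nearest other exceeded Dixon's 95% critical value, where chance flags about 1 in 20. In 4OHT siSMARCA4, library 4-2VM was low for COL1A2 at 384 CPM (the others 730 to 877) and for COL4A5 at 45.6 CPM (63.5 to 71.0). In 4OHT siNT, library 4-1VM was low for COL11A1 at 8.41 CPM (9.33 to 9.58) and library 4-3VM was low for COL13A1 at 25.8 CPM (30.4 to 32.5). In DMSO siNT, library 2-2VM was high for COL9A2 at 11.8 CPM (4.24 to 5.51) and for the log2 ratio COL1A1/COL1A2 at 1.05 (0.60 to 0.69). Library 2-1V was high for COL10A1 at 0.401 CPM (0.218 to 0.259) and for COL15A1 at 34.9 CPM (4.36 to 12.04). DMSO siNT 2-2VM was also the highest of its group for 19 of 33 collagens and 4-3VM the lowest for 19, and in 4OHT siSMARCA4 4-2V was the highest for 14 and 4-3V the lowest for 13. What sets these libraries apart was not tested.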

How the results depend on the processing

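Of 99 fold changes of collagen genes, 66 kept their side of the threshold under every alternative run and 33 changed side under at least 1. Values lay on both sides of 0 for 14, of which 0 were called with all libraries. Collagens called lower under siSMARCA4 numbered 12 with siRNA number 4 libraries only (22 with all), where 2.38% of all genes were. They numbered 19 to 22 when a library was left out, where 2148 to 3029 of all genes tested were. Collagens called in 4OHT siNT ranged over 16 to 17 higher and 12 to 13 lower when a library was left out. Over all genes tested these ranges were 4652 to 5370 and 5073 to 5486. For the chain ratios, alternatives were read at an unadjusted exact permutation p under 0.05, not adjusted over the 12 tests. The splits by siRNA number were not read this way, since their groups are too small to reach such a p. With VM libraries only, the log2 ratio difference under siSMARCA4 reached it for COL3A1/COL1A1 (0.80) and COL6A1/COL6A2 (0.18), and in 4OHT siNT that of COL6A3/COL6A1 was -0.14 and did not. The COL4A1/COL4A2 difference in 4OHT siNT was 0.36 with number 2 and 0.15 with number 4 libraries, given as values only. Leaving out a library gave 0.31 to 0.60 for COL3A1/COL1A1 under siSMARCA4, an unadjusted p under 0.05 only without 4OHT siSMARCA4 4-3V. In 4OHT siNT it gave -0.12 to -0.05 for COL6A1/COL6A2, an unadjusted p under 0.05 only without DMSO siNT 4-3VM, and -0.28 to -0.16 for COL6A3/COL6A1. Of 14 alternatives, 10 lost the unadjusted p under 0.05 of COL6A3/COL6A1 in 4OHT siNT. Repeat copies called lower under siSMARCA4 numbered 3 with library totals without TMM (5 with TMM), where 206 of all 13026 copies were (234 with TMM). That scaling moved the median of all genes by -0.11 (4OHT siNT against DMSO siNT) and the share of calls that were higher from 49.6% to 39.5%. It ended the 4OHT siNT call of COL5A1 (log2 0.37), the knockdown calls of COL5A3 (-0.45) and COL12A1 (-0.64), and the calls of COL4A1 and COL24A1 between the outer groups (0.39 for both). The knockdown call of COL9A3 was lost with no filter on low counts (-0.64) and with V or VM as a covariate (-0.55), and that of COL4A1 between the outer groups when only those groups were fitted (0.46). The cause was not tested in any of these.

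Libraries of different groups with the same siRNA number and tag did not deviate together, with correlations of deviations from -0.45 to 0.30. With the tag as a replicate block, 3 biosynthesis enzymes and chaperones fell under siSMARCA4 (7 without it) and 3 basement membrane partners fell in 4OHT siNT (5 without it), MMP1 was called higher under siSMARCA4, and 16 collagens rose and 11 fell in 4OHT siNT (4750 and 4679 of all 19473 genes), 0 rose and 20 fell under siSMARCA4 (9.66% and 13.2%), and 7 were higher and 15 lower between the outer groups (22.6% and 24.4%). The block ended the 4OHT siNT calls of COL3A1 (log2 -0.61) and COL5A1 (0.50), the knockdown calls of COL5A3 (-0.43) and COL9A3 (-0.56), and the calls of COL4A1 and COL24A1 between the outer groups (0.42 for both).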
